A study of Xenopus laevis with 6 samples.

Results

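The genes described here encode the kinases of the mitogen-activated protein (MAP) kinase cascades and the proteins named after them. They were chosen by annotated symbol: every gene whose symbol starts with mapk, map2k, map3k, map4k, rps6ka, raf, araf, braf, mapkapk or ksr. Of 11303 genes with a probe set on the array, 32 met this rule, measured by 44 probe sets. The frog *Xenopus laevis* is allotetraploid, and the suffixes .L and .S mark the homeologs of a gene on its long and short chromosome sets; each homeolog counts as a gene. A gene with more than 1 probe set is represented by the brightest, by mean log2 intensity.

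RNA was measured on 6 one-colour arrays from *X. laevis* embryos at the 8-cell stage, from natural matings of 2 adult pairs. The animal samples, 3 in number, were blastomeres of the animal pole. The 3 vegetal samples were the ends of the vegetal blastomeres nearest the pole, cut from the equatorial parts, which were thrown away. All embryos of both groups had been dejellied in cysteine and fixed in ethanol and acetic acid before dissection, and the labels give no genotype or further treatment. Whether the replicates stem from different clutches is not recorded in the labels, so the spread behind each p-value is only that between these samples and may be technical. Values below are the authors' deposited linear intensities, in arbitrary units that compare arrays within a probe set and not probe sets with each other. In these pieces of embryo, fewer cells with an RNA, less of it per cell and its place within a cut vegetal cell cannot be told apart.

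A MAP kinase cascade is a relay in which a MAP kinase kinase kinase (MAP3K) phosphorylates a MAP kinase kinase (MAP2K), which phosphorylates a MAP kinase (MAPK). Some MAP3Ks are in turn activated by MAP4Ks, and the MAPKs act on transcription factors and on further kinases such as the RSK and MK families. The ERK branch runs from RAF or Mos through MEK to ERK and RSK, and is known in the frog egg for holding meiosis at its second metaphase until fertilization. The JNK and p38 branches are known for responses to stress and, in the embryo, for cell polarity and cell movement. At the 8-cell stage the embryo's own genome is silent, so these RNAs had been laid down in the egg, and their level says nothing of kinase activity.

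Arrays of one group resembled each other more than arrays of different groups, with Pearson's r over the tested probe sets of 0.981 to 0.987 within a group and 0.889 to 0.895 between groups. The labelled tissues matched their markers: 4 of 4 animal marker genes were higher in animal samples and 16 of 16 germ plasm and vegetal cortex genes were higher in vegetal samples, a list chosen with earlier results of these data known. Of 14 follicle and blood markers, 10 had a probe set. Of these, 6 were above the highest unspiked control probe set on no array. The summed intensity of all 10 was 683 to 751 in animal and 933 to 1024 in vegetal samples. Most of it came from *zp2.L*, an egg envelope gene, and *hba-l5.L*, a globin gene. The 3' to 5' ratio of the *gapdh* control probe sets, a sign of RNA integrity and amplification, was 4.18 ± 0.19 in animal and 7.35 ± 0.41 in vegetal samples (SD, n = 3 each; two-sided exact permutation p = 0.1, the smallest that 3 arrays against 3 allow). For *actin* the 3' to 5' ratio was 183 ± 79.0 in animal and 324 ± 42.9 in vegetal samples. Its 3' to middle ratio was 7.42 ± 0.47 and 13.1 ± 1.51, and neither *actin* ratio overlapped between groups (exact permutation p = 0.1 each). The *gapdh* 3' to middle ratio and the *ef1a* ratios to the 5' end and the middle overlapped (exact permutation p = 0.2, 0.2 and 0.5). The marker sum, the *gapdh* 3' to 5' ratio and the *actin* ratios moved with the group, and their part in the results below was not tested.

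Of the 32 cascade genes, 27 passed the filter on low intensity and were tested, and all 27 were above the highest unspiked control on every array. An animal excess was called for 10 genes and a vegetal excess for 4, while 13 missed the threshold of an adjusted p of 0.05 (limma with Benjamini-Hochberg adjustment over all 19523 probe sets tested). The 14 called genes made up 51.9% of those tested. Over all 8026 tested genes 50.9% were called, 27.1% as higher in animal and 23.7% as higher in vegetal samples, so the share of called cascade genes was near the background. The 2 groups of arrays did not overlap for 15 of the 27 cascade genes, against 58.3% of all tested genes. Differences were mostly small. The median size of the log2 difference, whatever its direction, was 0.24 for the cascade genes and 0.36 for all tested genes, and 1 cascade gene was called at 2-fold or more, against 14.5% of all tested genes.

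The median log2 difference (animal minus vegetal) was 0.13 for the cascade genes and 0.03 for all tested genes. These medians depend on how the arrays are scaled: over all tested genes the median was -0.12 with each array centred on its own median and 0.27 with spiked-control scaling. The split of the cascade calls moved with it, with 10 animal-higher and 4 vegetal-higher genes as deposited. The split was 5 and 5 when arrays were centred on the median, 12 and 1 when they were scaled to the spiked controls, and 11 and 4 under quantile normalization. Animal-higher genes were 71.4% of the cascade calls and 53.3% of all calls as deposited, 50% and 37.5% with median centring, 92.3% and 77.1% with the spiked controls, and 73.3% and 48.6% under quantile normalization. Of the 14 called genes, 6 kept their call and direction under all 3 other scalings: *mapkbp1.L*, *mapkapk2.S*, *map2k1.L*, *rps6ka3.L* and *map4k5.S*, higher in animal samples, and *mapk8.L*, higher in vegetal samples. None of the 14 changed direction under those scalings.

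**Figure D1:**
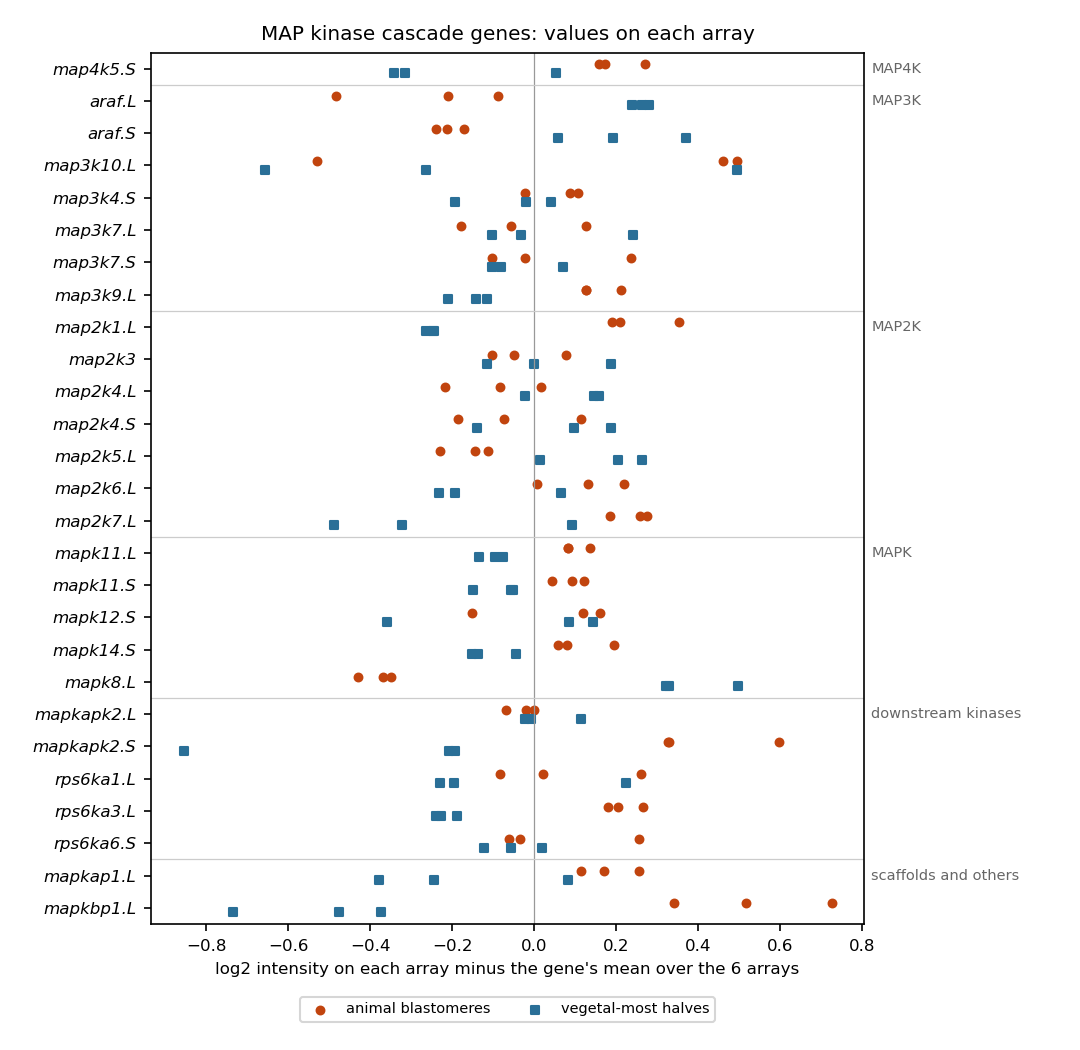
Log2 intensity of each of the 27 tested cascade genes on each array, minus the gene's mean over the 6 arrays (x axis), with genes grouped by tier down the page. Circles are the 3 animal and squares the 3 vegetal arrays; the groups do not overlap for 15 genes, and *mapkbp1.L*, *mapkapk2.S* and *mapk8.L* show the widest separation.

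At the top of the cascade, the only gene with a map4k symbol, *map4k5.S*, a kinase that acts upstream of JNK, was higher in animal samples. It read 606, 566 and 560.2 in animal samples, against 403, 521 and 396 in vegetal samples, with no overlap. The fold was 1.32 (95% confidence interval 1.13 to 1.55, limma's adjusted p = 0.0051), and the call ended with no filter on low values (0.062).

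The MAP3K tier, with 7 of 8 genes tested, held 1 call in animal and 2 in vegetal samples. Both homeologs of *araf*, a RAF kinase that phosphorylates MEK, were higher in vegetal samples. *araf.L* read 136, 104 and 125 in animal samples, against 171, 174 and 176 in vegetal samples. *araf.S* read 180.4, 175 and 172 in animal samples, against 212, 262 and 232 in vegetal samples. Neither gene's groups overlapped, and the folds were 1.43 (1.19 to 1.73, limma's adjusted p = 0.00327) and 1.33 (1.13 to 1.57, limma's adjusted p = 0.00575) higher in vegetal samples. Both calls ended under spiked-control scaling (limma's adjusted p = 0.309 for *araf.L* and 0.524 for *araf.S*), and that of *araf.S* also ended with the mean of its probe sets (0.239).

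*map3k9.L*, a mixed lineage kinase that activates JNK signalling, was higher in animal samples, at 759, 805 and 759.6 there, against 630.1, 642 and 602 in vegetal samples. Its fold was 1.24 (1.11 to 1.39, limma's adjusted p = 0.00366), and the call ended after median centring (0.13). *map3k7*, which encodes TAK1, a kinase of TGF-beta, BMP and stress signalling, did not pass for either homeolog, and the groups overlapped for both. *map3k7.L* read 319.6, 259 and 282 in animal samples, against 286, 346 and 273 in vegetal samples. *map3k7.S* read 246, 232 and 294 in animal samples, against 236, 262 and 232 in vegetal samples. *map3k4.S*, a kinase of the p38 and JNK branches, and *map3k10.L*, another mixed lineage kinase, also had overlapping groups and log2 differences of 0.12 and 0.28 (limma's adjusted p = 0.51 and 0.569).

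All 7 MAP2K genes were tested, with 3 animal and 1 vegetal call. The clearest was *map2k1.L*, which encodes MEK1, the kinase that activates ERK. It read 1223, 1368 and 1239 in animal samples, against 892, 904 and 904 in vegetal samples. The lowest animal array lay well above the highest vegetal one, and the fold was 1.42 (1.27 to 1.58, limma's adjusted p = 5.26e-05).

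*map2k7.L*, which acts on JNK, read 212, 226 and 223 in animal samples, against 199, 149 and 133 in vegetal samples. Its groups did not overlap, and its animal level was 1.39-fold higher (1.14 to 1.71, limma's adjusted p = 0.00899). That call ended after median centring (limma's adjusted p = 0.0572) and with no filter on low values (0.081). *map2k4*, which acts on both JNK and p38, gave log2 differences of -0.19 for the .L and -0.10 for the .S homeolog, with overlapping groups (limma's adjusted p = 0.0575 and 0.579). The .L homeolog passed as higher in vegetal samples after median centring (limma's adjusted p = 0.0166) and without animal replicate 3 (0.0272) or vegetal replicate 2 (0.0239).

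*map2k5.L*, the kinase of ERK5, was the MAP2K higher in vegetal samples, at 164, 178 and 174 in animal samples, against 195, 231 and 222 in vegetal samples. The lowest vegetal array was above the highest animal one, and the fold was 1.25 (1.06 to 1.47, limma's adjusted p = 0.0239). The call ended without animal replicate 1 (limma's adjusted p = 0.0747), without vegetal replicate 2 (0.0917) or 3 (0.0606), and under spiked-control scaling (0.781). *map2k6.L* and *map2k3* both act on p38. *map2k6.L* read 779, 734 and 674 in animal samples, against 571, 586 and 702 in vegetal samples, with overlap, 1.18-fold higher in animal samples (1.02 to 1.36, limma's adjusted p = 0.0481). The call lay at the threshold and ended under 8 of the 15 alternatives, among them the fits without animal replicate 1 (limma's adjusted p = 0.161) or 2 (0.119), without vegetal replicate 1 (0.152) or 2 (0.145) and after median centring (0.49). *map2k3* gave a log2 difference of -0.05 (limma's adjusted p = 0.657).

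Among the MAPKs, 5 of 7 genes were tested, with 2 animal calls and 1 vegetal call. *mapk8.L*, which encodes JNK1, gave the largest vegetal difference of all 27 tested cascade genes by its brightest probe set. It read 1166, 1103 and 1149.9 in animal samples, against 2096, 1864 and 1855 in vegetal samples. Group means were 1140 ± 32.5 in animal and 1938 ± 136 in vegetal samples (SD, n = 3 each). Each vegetal array was far above each animal array, at 1.70-fold (1.52 to 1.90, limma's adjusted p = 7.08e-07). Its other probe set is dim and went the other way, so that with the mean of both no difference was called (limma's adjusted p = 0.639, log2 difference -0.07).

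The p38 kinases *mapk14.S* (p38 alpha) and *mapk11.L* (p38 beta) were slightly higher in animal samples. *mapk14.S* read 612, 566 and 557 in animal samples, against 518, 481 and 486 in vegetal samples, an animal excess of 1.17-fold (1.03 to 1.32, limma's adjusted p = 0.0353). *mapk11.L* read 958, 957 and 994 in animal samples, against 847, 858 and 824 in vegetal samples, an animal excess of 1.15-fold (1.03 to 1.28, limma's adjusted p = 0.0299). Neither gene's groups overlapped, but the calls were fragile. That of *mapk14.S* ended without animal replicate 1 (limma's adjusted p = 0.126) or 2 (0.0722), without vegetal replicate 2 (0.098) or 3 (0.0754), after median centring (0.515) and without the mean-variance trend (0.0906). That of *mapk11.L* ended without animal replicate 1 (limma's adjusted p = 0.0502), 2 (0.0752) or 3 (0.0879), without vegetal replicate 1 (0.0519) or 3 (0.0708), after median centring (0.641) and without the trend (0.0922). *mapk11.S* read 1321, 1294 and 1251 in animal samples, against 1094, 1171 and 1168 in vegetal samples. These groups did not overlap either, and the gene missed the threshold (limma's adjusted p = 0.057). It passed after quantile normalization (limma's adjusted p = 0.00386) and under spiked-control scaling (0.00513). Its other probe set read 1158.5, 1123.7 and 1034.5 in animal samples, against 1057.3, 1018.2 and 1193.2 in vegetal samples. Those groups overlapped, with a log2 difference of 0.02 (limma's adjusted p = 0.838). *mapk12.S* (p38 gamma) gave a log2 difference of 0.09 by its brightest probe set, with overlapping groups (limma's adjusted p = 0.684).

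Of the kinases that MAPKs activate, 5 of 7 genes were tested, and 2 were higher in animal samples and 0 in vegetal samples. *mapkapk2.S*, which encodes MK2, a target of p38 that acts on RNA-binding proteins, read 496, 411 and 412 in animal samples, against 287, 181 and 284 in vegetal samples. No animal array fell within the vegetal range, and the fold was 1.79 (1.43 to 2.24, limma's adjusted p = 0.000309). *rps6ka3.L*, which encodes RSK2, a kinase activated by ERK, read 547, 524 and 516 in animal samples, against 399.7, 386 and 389 in vegetal samples. Its fold was 1.35 (1.20 to 1.53, limma's adjusted p = 0.000451), again with no overlap. The other RSK genes had overlapping groups: *rps6ka1.L* read 83.3, 70.6 and 65.7 in animal samples, against 59.3, 60.7 and 81.3 in vegetal samples (limma's adjusted p = 0.547), and *rps6ka6.S* gave a log2 difference of 0.11 (limma's adjusted p = 0.581).

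By brightest probe sets, the largest difference of any tested cascade gene was in *mapkbp1.L*. This gene encodes a protein that binds JNK and is thought to act as a scaffold. It read 1683, 1901 and 2198 in animal samples, against 798, 1027 and 956 in vegetal samples, an animal excess of 2.08-fold (1.78 to 2.43, limma's adjusted p = 9.66e-07). Group means were 1927 ± 258 in animal and 927 ± 117 in vegetal samples (SD, n = 3 each). The lowest animal array was above the highest vegetal array, and the call held under all 15 alternatives, as it did for *mapkapk2.S*, *map2k1.L* and *rps6ka3.L* and for no other called gene. *mapkap1.L*, which despite its symbol encodes a subunit of the mTORC2 complex, read 76.0, 79.0 and 83.8 in animal samples, against 54.0, 59.3 and 74.3 in vegetal samples. These groups did not overlap but the gene did not pass (limma's adjusted p = 0.0819). It passed without vegetal replicate 3 (limma's adjusted p = 0.0276) and under spiked-control scaling (0.032). Its dimmer probe set had overlapping groups and a log2 difference of 0.22 (limma's adjusted p = 0.664).

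**Figure D2:**
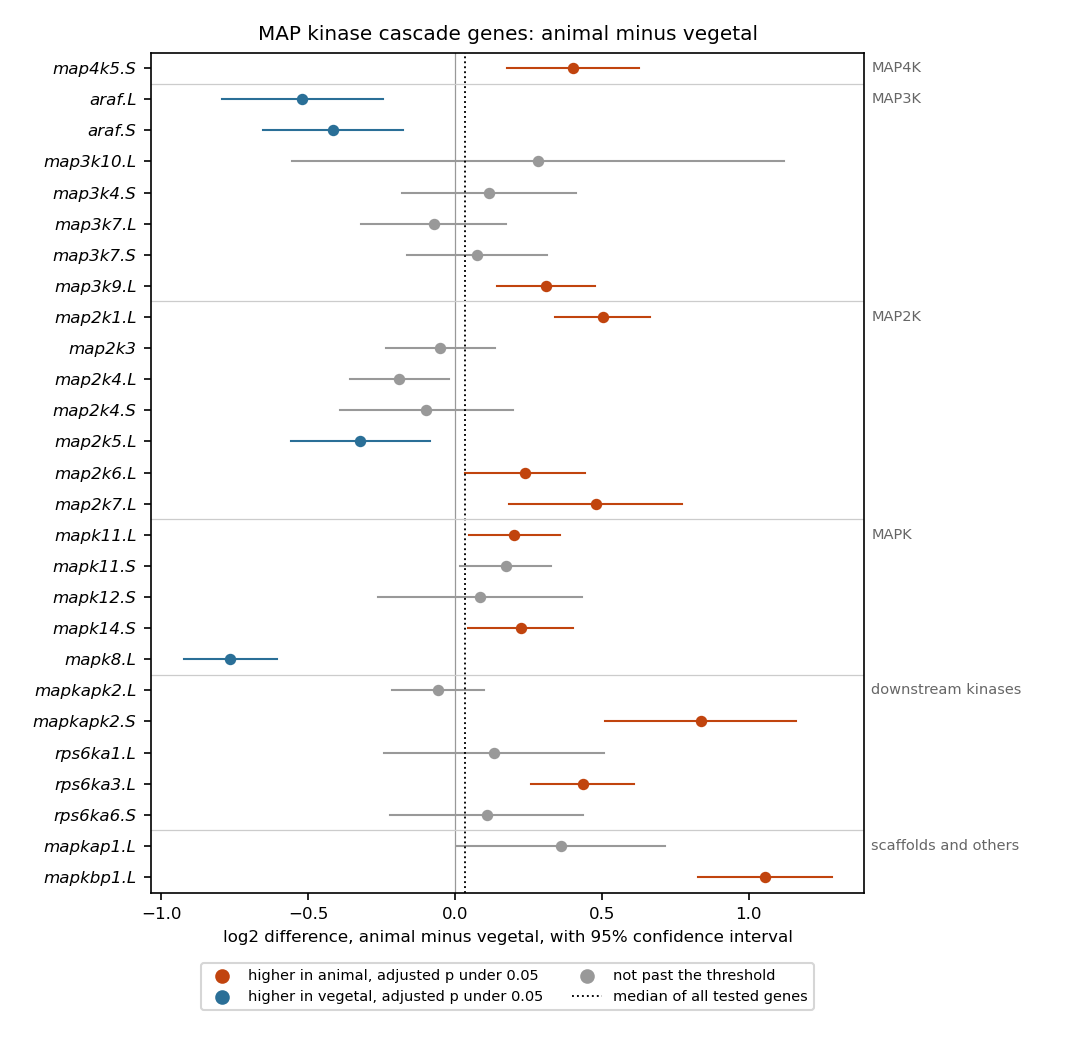
Log2 difference, animal minus vegetal, of the 27 tested cascade genes with 95% confidence intervals (x axis), grouped by tier down the page; colour marks the 10 genes higher in animal and the 4 higher in vegetal samples. The dotted line is the median of all tested genes, 0.03; *mapkbp1.L* at 1.06 and *mapk8.L* at -0.76 are the extremes.

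As deposited, the ERK and JNK branches held calls in both directions. In the ERK branch *map2k1.L* and *rps6ka3.L* were higher in animal and *araf.L* and *araf.S* in vegetal samples, and the other 2 of 6 tested genes did not pass. In the JNK branch *map2k7.L* was higher in animal and *mapk8.L* in vegetal samples, and the other 2 of 4 did not pass. Under spiked-control scaling the ERK branch had 2 animal-higher and 0 vegetal-higher calls. The JNK branch had 0 animal-higher and 2 vegetal-higher calls after median centring, 0 and 1 with no filter on low values, and 1 and 0 with the mean of a gene's probe sets. In the p38 branch 4 of 8 tested genes had a higher animal level, 0 had a higher vegetal level and 4 missed the threshold, or 50% called, near the 50.9% of all tested genes. Under median centring the branch had 1 animal-higher and 0 vegetal-higher calls. A common factor per array moves all differences by the same amount, so the distance between 2 genes on the log2 scale, such as *map2k1.L* at 0.50 and *araf.L* at -0.52, was the same as deposited, when centred on the median (0.35 and -0.67) or scaled to the spiked controls (0.74 and -0.28).

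**Figure D3:**
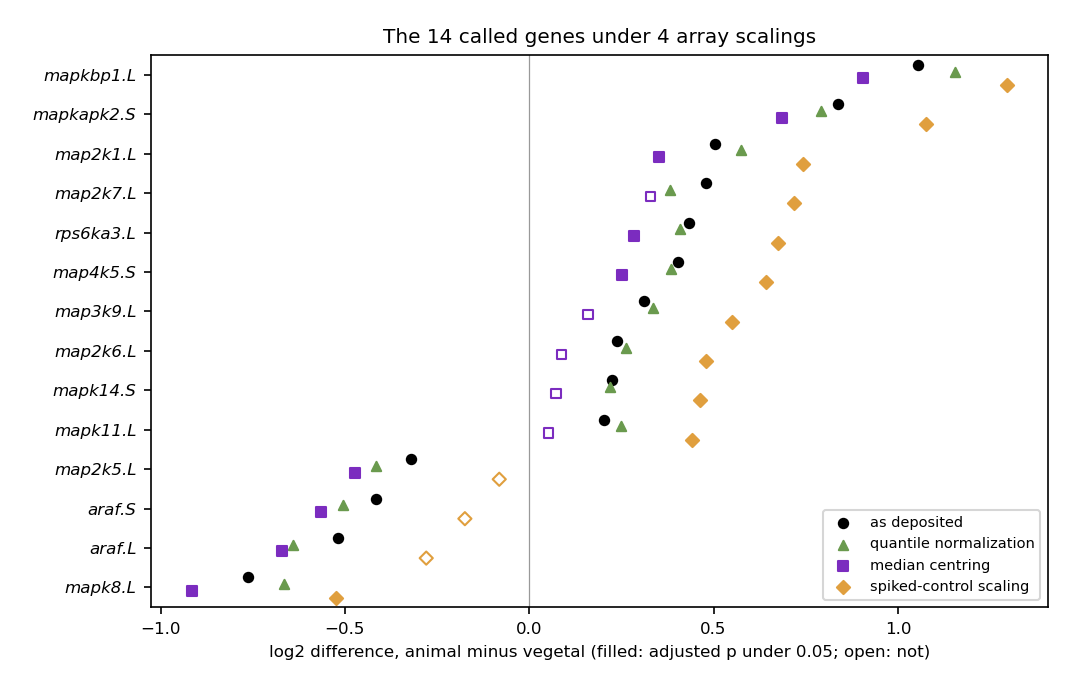
Log2 difference, animal minus vegetal (x axis), of the 14 called cascade genes as deposited and under the 3 other array scalings; filled markers have an adjusted p under 0.05 and open ones do not. No gene crosses 0, and 6 genes keep filled markers throughout.

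Homeologs of one gene could be compared for 5 cascade genes with both copies tested, and this difference does not depend on a common factor per array. Over all 1357 homeolog pairs of the array 43.6% differed in their animal minus vegetal difference (limma on log2(.L) minus log2(.S), Benjamini-Hochberg over all pairs). Of the 5 cascade pairs 1 did, *mapkapk2*. *mapkapk2.L* read 1264, 1280.3 and 1222 in animal samples, against 1386, 1262 and 1273 in vegetal samples, with overlap and a log2 difference of -0.06 (limma's adjusted p = 0.533), beside 0.84 for *mapkapk2.S*. The .L minus .S value sets different probe sets side by side, so only its change between groups is read. It was 1.35, 1.64 and 1.57 (log2) on the animal arrays, against 2.27, 2.80 and 2.17 on the vegetal arrays. The animal minus vegetal difference was thus lower for .L than for .S by -0.89 (log2, -1.36 to -0.43, limma's adjusted p = 0.0101), past the threshold under each alternative run for it. For *araf*, *map2k4*, *map3k7* and *mapk11* the homeologs' differences were -0.10, -0.09, -0.15 and 0.03 apart (limma's adjusted p = 0.57, 0.712, 0.422 and 0.824), with intervals of -0.44 to 0.23, -0.54 to 0.36, -0.48 to 0.18 and -0.21 to 0.27. Near-identical copies can share probes, so a probe set named for one homeolog may also bind the other.

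Several probe sets of one gene were tested for 9 cascade genes. Their animal minus vegetal differences were compared with limma over all 2472 such pairs of the array, of which 29.4% passed, a comparison added after seeing the data. Of 11 cascade pairs 3 passed. The dim probe set of *mapk8.L* read 22.0, 28.8 and 31.9 in animal samples, against 22.4, 15.4 and 16.3 in vegetal samples. These groups overlapped, and its log2 difference of 0.62 (limma's adjusted p = 0.066) lay apart from the -0.76 of the bright one (limma's adjusted p = 0.00642 for the difference between probe sets).

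For *mapk12.S* the other probe set read 66.8, 73.9 and 70.7 in animal samples, against 37.4, 39.6 and 44.0 in vegetal samples. It was 1.75-fold higher in animal samples with no overlap (limma's adjusted p = 0.00108), unlike the brightest one (limma's adjusted p = 0.0428 for the difference between probe sets). With the mean of its probe sets the gene was called (limma's adjusted p = 0.0194). All 4 probe sets of *map3k9.L* were above 0, at 0.31, 0.24, 0.41 and 1.21, and the last differed from the brightest (limma's adjusted p = 0.0142). It read 168, 153 and 127 in animal samples, against 52.6, 70.4 and 70.7 in vegetal samples. For *map2k7.L* the dimmer probe set gave 0.97 beside 0.48, which did not differ past the threshold (limma's adjusted p = 0.0857).

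**Figure D4:**
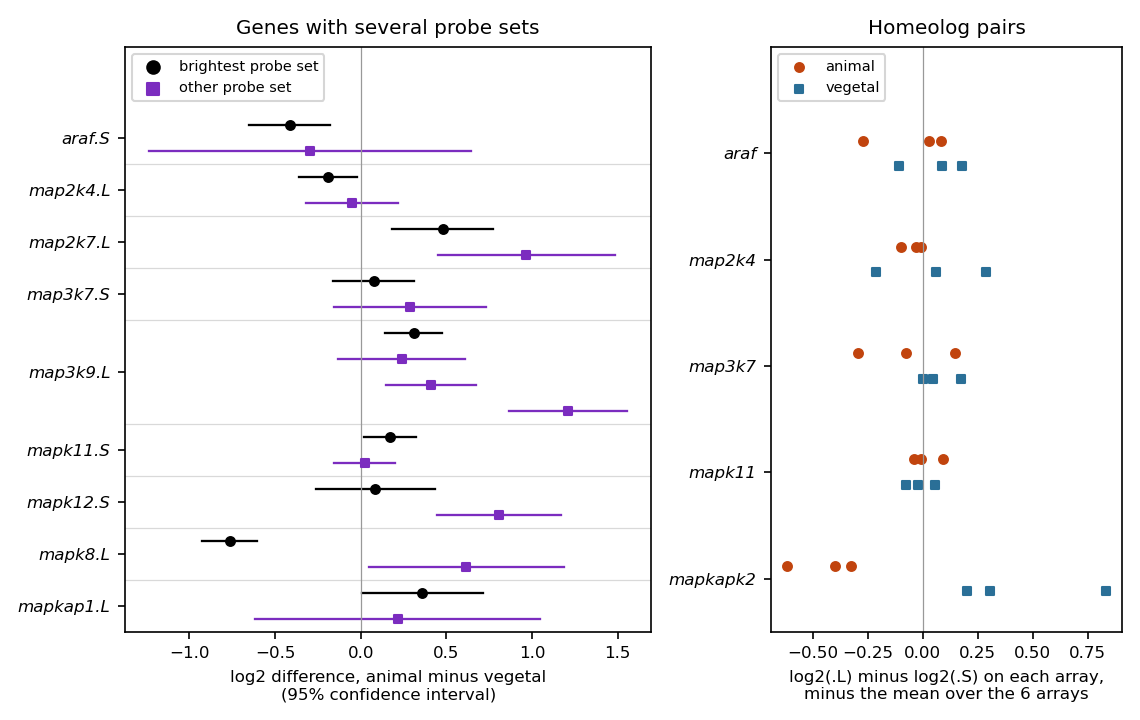
Left: log2 difference, animal minus vegetal, with 95% confidence intervals, for each tested probe set of the 9 cascade genes with several; circles are the brightest and squares the others, and the probe sets of *mapk8.L* lie on opposite sides of 0. Right: log2(.L) minus log2(.S) on each array, minus its mean over the 6 arrays, for the 5 homeolog pairs; the animal arrays (circles) lie below all vegetal arrays (squares) for *mapkapk2*.

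The other 5 cascade genes were under the intensity filter and had no test. *mapk15.L*, an atypical MAPK, read 0.2 to 3.7 in animal and 4.2 to 7.4 in vegetal samples, and *map3k22.L* read 2.2 to 10.1 in animal and 4.4 to 18.3 in vegetal samples. *mapk8.S* read 0.5 to 0.7 in animal and 1.0 to 4.0 in vegetal samples. *mapkapk3.S* and *rps6ka4.L*, relatives of MK2 and RSK, read at most 4.2 and 3.1 in animal and 1.4 and 4.0 in vegetal samples. The highest unspiked control was 4.1 to 5.4 on animal and 4.6 to 6.7 on vegetal arrays, so these values lie at or near background and bear no fold. Only *map3k22.L*, on 2 vegetal and 1 animal array, and *mapk15.L*, on 1 vegetal array, were above it. The filter on the mean intensity over both groups lay at 6.94.

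Genes that feed into the cascades or act on them were read from 7 further lists, whose shares of called genes are set beside the 50.9% of all tested genes. Receptors and ligands of growth factor signalling had 14 of 30 genes tested, 6 higher in animal and 4 higher in vegetal samples, or 71.4% called. Of the 6, *pdgfa.S* read 7.1, 7.8 and 5.8 in vegetal samples, a mean of 6.9, against 18, 14.3 and 17.6 in animal samples. That vegetal mean lay just under the filter of 6.94, and 2 of the vegetal arrays were above the highest unspiked control. The gene was tested, and counts among the 6, only because its animal values lifted its mean over the filter. The fibroblast growth factor receptors, which activate the ERK branch, went both ways. *fgfr2.L* read 8.3, 6.3 and 8.0 in animal samples, just above the unspiked controls, against 286, 280.4 and 316 in vegetal samples, 39.3-fold higher in vegetal samples (29.7 to 51.9, limma's adjusted p = 9.49e-12). *fgfr4.S* was 2.82-fold (2.27 to 3.52, limma's adjusted p = 8.19e-07) and *fgfr3.S* 2.52-fold (1.61 to 3.95, limma's adjusted p = 0.00189) higher in animal samples. The vegetal values of *fgfr3.S*, 7.7, 8.6 and 8.2, were only just above the unspiked controls. The insulin-like growth factor receptor gene *igf1r.S* was 3.19-fold higher in vegetal samples (2.19 to 4.66, limma's adjusted p = 6.19e-05).

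Of the Ras module, the GTPases and adaptors between receptor and RAF, 25 of 30 genes were tested, 9 higher in animal and 4 higher in vegetal samples, or 52% called. *rasgrp1.L*, a Ras activator, was 2.95-fold (1.91 to 4.57, limma's adjusted p = 0.000418) and *spry1.S*, an inhibitor of receptor signalling, 2.38-fold higher in animal samples (1.71 to 3.30, limma's adjusted p = 0.000259). The call of *spry1.S* ended with the mean of its probe sets (limma's adjusted p = 0.394). Its other probe set read 0.3, 1.9 and 3.2 in animal samples, against 1.8, 1.7 and 5.9 in vegetal samples. That probe set was above the highest unspiked control on no array and was under the intensity filter. The vegetal level of the adaptor *gab1.L* was 1.75-fold higher (1.35 to 2.28, limma's adjusted p = 0.00139), a call that ended with no filter on low values (0.0511). Its homeolog *gab1.S* did not pass, with overlapping groups and a log2 difference of 0.16 (limma's adjusted p = 0.385). *spry2.S* read 5.1, 5.7 and 5.0 in animal samples, against 8.8, 14.2 and 9.5 in vegetal samples. Only 2 of the animal arrays were above the highest unspiked control. The animal values all lay under the filter of 6.94, so the gene was tested only because of its vegetal values. It passed as higher in vegetal samples (limma's adjusted p = 0.0387). The threshold was missed in fits leaving out animal replicate 1 (limma's adjusted p = 0.0849), 2 (0.0648) or 3 (0.0866), or vegetal replicate 2 (0.156) or 3 (0.0513). Spiked-control scaling (0.192) and dropping the filter on low values (0.0537) also ended the call. The homeolog *spry2.L* did not pass, with overlapping groups and a log2 difference of -0.16 (limma's adjusted p = 0.657).

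Inputs to the JNK and p38 branches had 15 of 24 genes tested, 3 higher in animal and 4 higher in vegetal samples, or 46.7% called. *stk3.S*, a kinase of the Hippo pathway, was 2.29-fold (1.99 to 2.63), *taok1.S*, a MAP3K by activity, 2.05-fold (1.63 to 2.58) and the GTPase gene *rac1.L* 1.83-fold (1.59 to 2.10) higher in animal samples. *traf2.S*, an adaptor of cytokine receptors, was 3.12-fold higher in vegetal samples (2.31 to 4.21, limma's adjusted p = 8.03e-06). Another of the 4, *cdc42.L*, was called in vegetal samples by its brightest probe set, at -0.35 (log2, limma's adjusted p = 0.00094). Other probe sets of *cdc42.L* gave 0.77 and 0.37 (limma's adjusted p = 5.77e-05 and 0.00306), called in animal samples, and -0.06, which did not pass (0.601).

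Phosphatases had 16 of 22 genes tested, 7 higher in animal samples, 0 higher in vegetal samples and 9 not past the threshold, or 43.8% called. After median centring 6 were animal-higher and 2 vegetal-higher, and after quantile normalization 6 and 1. *dusp1.S*, a MAPK phosphatase, read 49.4, 39.9 and 35.4 in animal samples, against 9.1, 8.9 and 15.8 in vegetal samples, an animal excess of 3.79-fold (2.47 to 5.82, limma's adjusted p = 5.73e-05). Its homeolog *dusp1.L* did not pass by its brightest probe set, at 0.06 (log2, limma's adjusted p = 0.824) with overlap. The other probe set of *dusp1.L* gave 0.83 (limma's adjusted p = 0.0119). *ppm1d.L* and *ppm1d.S*, which encode a stress phosphatase that acts on p38, were 2.46-fold (1.98 to 3.04) and 1.73-fold (1.54 to 1.93) higher in animal samples. *dusp11.L*, which is known to act on RNA and not on MAPKs, was 2.33-fold higher in animal samples by its brightest probe set and at -0.88 (log2, limma's adjusted p = 0.00163) by its other one. With the mean of both its difference was 0.17 (log2) and not called (limma's adjusted p = 0.312).

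Scaffolds outside the naming rule had 9 of 11 genes tested, 2 higher in animal and 3 higher in vegetal samples, or 55.6% called. *cnksr2.L*, a relative of the CNK scaffold of RAF signalling, read 51.3, 45.3 and 40.3 in animal samples, against 1149, 945 and 1013 in vegetal samples. That is 22.7-fold higher in vegetal samples with no overlap (19.0 to 27.1, limma's adjusted p = 8.02e-13). Of the subunits of the Ragulator complex, which holds MEK at late endosomes, *lamtor2.S* was 3.58-fold higher in vegetal samples (2.25 to 5.70). The subunit gene *lamtor3.L* was 1.82-fold higher in animal samples (1.44 to 2.31). A further subunit gene, *lamtor2.L*, was on no animal array above the unspiked controls. It read 2.5, 4.3 and 4.4 in animal samples, against 11.7, 14.9 and 13.5 in vegetal samples. It was tested, and counts among the 3 higher in vegetal samples, only because its vegetal values lifted its mean over the filter. Its vegetal level was at least 2.72-fold higher against those controls, a point estimate without an interval.

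The list of Mos and of regulators of meiotic arrest had all 15 genes tested, 2 higher in animal, 7 higher in vegetal samples and 6 not past the threshold, or 60% called. That split depended on the scaling, at 0 animal-higher and 11 vegetal-higher genes when median-centred, 2 and 1 with the spiked controls, and 1 and 5 under quantile normalization. *mos.L* encodes the MAP3K that drives the ERK branch in the oocyte. It read 1083, 1083 and 1187 in animal samples, against 956, 902 and 944 in vegetal samples, an animal excess of 1.20-fold (1.07 to 1.34, limma's adjusted p = 0.00987). Its other probe set read 111, 102 and 100.2 in animal samples, against 35.5, 35.0 and 36.3 in vegetal samples, at 1.55 on the log2 scale (limma's adjusted p = 1.14e-06). Both probe sets were thus higher on every animal array, while the call of the bright one ended after median centring (limma's adjusted p = 0.349) and without the mean-variance trend (0.0577).

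*fbxo43.S* and *fbxo43.L*, which encode Emi2, the inhibitor that keeps the egg arrested, were 1.55-fold (1.39 to 1.73) and 1.25-fold (1.13 to 1.39) higher in vegetal samples, and *ccnb1.S*, a B-type cyclin, 1.31-fold (1.18 to 1.45). The calls of *fbxo43.L* and *ccnb1.S* ended under spiked-control scaling (limma's adjusted p = 0.567 and 0.229). *pkmyt1.S*, a kinase that inhibits Cdk1, was called in animal samples (limma's adjusted p = 0.0132) by its brightest probe set, but not without animal replicate 3 (0.0731), after quantile normalization (0.0844) or median centring (0.0935), or with the mean of its probe sets (0.326), and its other probe sets did not pass (0.222 and 0.329).

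Targets of the cascades had 31 of 37 genes tested, 7 higher in animal, 10 higher in vegetal samples and 14 not past the threshold, or 54.8% called. *srf.L*, a transcription factor that works with ERK-activated Elk proteins, was 2.69-fold (1.76 to 4.09, limma's adjusted p = 0.000684) and *max.S*, the partner of Myc, 2.34-fold (2.06 to 2.66) higher in animal samples. Its homeolog *max.L* did not pass by its brightest probe set, at -0.09 (log2, limma's adjusted p = 0.324) with overlap. The other probe set of *max.L* gave 0.21 (limma's adjusted p = 0.0274). For *srf.L* the dimmer probe set gave 0.43 (log2, limma's adjusted p = 0.326) and did not pass. *mef2c.L*, a transcription factor activated by p38 and ERK5, had a vegetal level 4.68-fold higher (3.57 to 6.15, limma's adjusted p = 1.08e-07). *zfp36.L*, an RNA decay factor that MK2 phosphorylates in mammals, was on no animal array above the unspiked controls. It read 2.7, 0.4 and 4.7 in animal samples, against 25.5, 34.9 and 20.2 in vegetal samples. It was tested, and counts among the 10, only because its vegetal values lifted its mean over the filter. Its vegetal level was at least 5.35-fold higher against those controls, a point estimate without an interval.

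**Figure D5:**
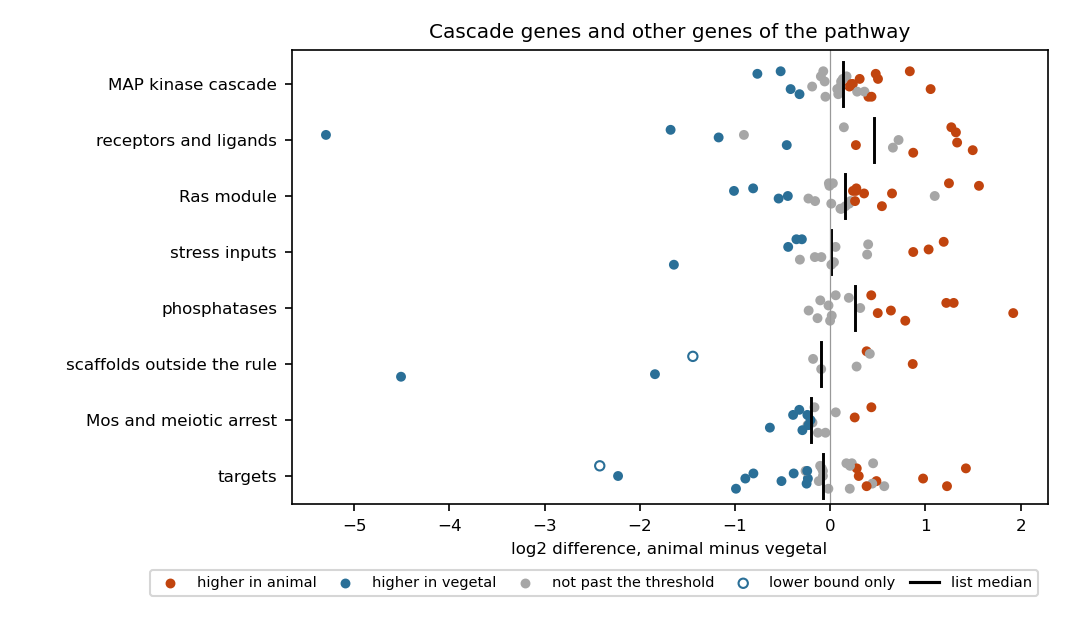
Log2 difference, animal minus vegetal (x axis), of each tested gene in the cascade (top row, 27 genes) and in the 7 lists of other pathway genes; colour marks genes past the threshold in each direction, open circles are *lamtor2.L* and *zfp36.L* at their lower bounds, and bars are list medians. The cascade genes lie between -0.76 and 1.06, while *fgfr2.L* and *cnksr2.L* lie far to the vegetal side.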

How the data were processed

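The values are linear intensities of single probe sets on 6 arrays, made by the authors with GCOS, per the submitters' processing notes. The sources used here give no version, settings or detection calls. The 2% trimmed mean, averaged over the 6 arrays, was 150.0, and no further scaling was applied. Of 32635 probe sets 96 were controls, and of the others 15495 had 1 symbol, 279 several and 16765 none in the platform annotation, updated by gene ID to Xenopus_laevis_v10.1. Of the 279, 3 assigned to both *mapk7.L* and *stk10.L* were not used as members.

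Values under 1 were set to 1, log2 was taken, and the lowest 40% of probe sets by mean log2 were left out, leaving 19523. Animal and vegetal arrays were compared with limma 3.58.1 (R 4.3.3; lmFit and eBayes with trend, no block, two-sided, Benjamini-Hochberg). Where a group was on no array above the highest of 59 unspiked controls, the fold was computed against the higher of the control and the gene's own value on each array. Such a bound is a point estimate and carries no interval. The code was tested on simulated data. Members and lists were chosen with earlier results of these data known. A rule named genes of at least 2-fold, their homeologs, set kinases of each branch and up to 4 genes per list; since it would leave most cascade genes out, every tested one is given. Arrays give no molecule count, and their number limits the precision.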

Additional observations from a re-analysis of the deposited data

How the results depend on the processing

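Over 15 alternatives, 4 of the 14 called cascade genes kept their call and direction under every one (*mapkbp1.L*, *mapkapk2.S*, *map2k1.L* and *rps6ka3.L*), and none of the 14 changed direction. The counts moved by more than 1.5 times with the scaling and the choice of probe set: 5 cascade genes were higher in animal samples after median centring, 1 was higher in vegetal samples under spiked-control scaling, and 2 were with the mean of a gene's probe sets. Under spiked-control scaling the cascade median was 0.37 (log2), 826 of all tested genes were higher in vegetal samples, and 15 genes of the other pathway lists were. Leaving out 1 array at a time gave 7 to 9 animal-higher and 3 to 5 vegetal-higher cascade genes and medians of 0.12 to 0.18. The same fits gave 1860 to 2072 and 1644 to 1812 of all tested genes, and 29 to 38 and 25 to 30 genes of the other lists. Same-numbered animal and vegetal replicates did not deviate together (correlations of deviations from group means -0.023, 0.0063 and -0.014), and whether they share embryos or a clutch is unknown. A fit with the replicate number as a replicate block called 7 animal-higher and 4 vegetal-higher cascade genes, without *map2k6.L* (limma's adjusted p = 0.0741), *mapk11.L* (0.059) and *mapk14.S* (0.0506), and not *spry2.S* (0.0511). The causes were not tested. The filter and the low signal limit the 5 dim members.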

Other observations

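The 3 probe sets assigned to both *mapk7.L*, which encodes ERK5, and *stk10.L*, another kinase gene, stayed outside the comparison because they name no single gene. The dimmest of them read 17.7, 14.5 and 12.9 in animal samples, against 33.4, 48.3 and 32.3 in vegetal samples, with no overlap, 2.51-fold higher in vegetal samples (1.71 to 3.68, limma's adjusted p = 0.000594). The other 2 had overlapping groups and log2 differences of 0.05 and -0.14 (animal minus vegetal, limma's adjusted p = 0.84 and 0.671).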
